A study of Mus musculus with 10 samples.

Results

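The genes examined here carry the 2 signalling systems that pass between motor neurons and their partners at the neuromuscular junction. They are 9 genes, taken by name, of the agrin and MuSK pathway (Agrn, Musk, Lrp4, Dok7 and Rapsn) and of neuregulin signalling (Nrg1, Erbb2, Erbb3 and Erbb4). They belong to 48974 genes whose exons were searched for reads, including genes that received none. RNA was sequenced from YFP-positive cells sorted from e10.5 mouse spinal cord, in 5 control and 5 cdKO samples. All embryos carried Olig2-Cre+/- and Rosa26R-YFP+/-, so that YFP marked cells in which Cre had been active, namely the motor neuron lineage and, according to the study, ventrally placed V3 interneurons. Control embryos were Oc1+/Flox and Oc2+/Flox, and cdKO embryos were Oc1-/Flox and Oc2-/Flox, so that each cdKO embryo also had a null allele of each gene in every cell. Oc1 and Oc2 (Onecut1 and Onecut2) encode Onecut transcription factors of young motor neurons. Where Cre acts on the floxed copies, control cells keep the wild-type copy of each gene and cdKO cells keep none. The comparison asks whether RNA of these junction genes differed between these genotypes.

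Agrin is a large matrix protein that motor axons release onto muscle fibres. There it binds Lrp4, which activates the receptor kinase MuSK together with the adaptor Dok7, and rapsyn (Rapsn) then gathers acetylcholine receptors beneath the nerve ending. Neuregulin 1 of motor axons acts through ErbB2 and ErbB3 on Schwann cells, on whose survival and myelin it is best known to act, and ErbB4 is a further receptor for it. Both ligands are made as many isoforms. The small Z exons of Agrn are included in neurons and give agrin its strong clustering activity, whereas the even smaller Y exon governs binding to heparin. In Nrg1, the choice of first exon separates the secreted or shed types from type III, which stays in the membrane, and the alpha or beta exon completes the EGF-like domain that binds the receptor.

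The sequences on which the isoform values rest are shown here, read from GENCODE M21 transcripts of GRCm38 in the direction of the transcript. Capitals mark the exon and lower case the 20 transcript bases on either side. The Agrn Y exon (chr4:156169546-156169557, minus strand) has 12 bases, the shorter Z exon (chr4:156168546-156168569) 24 and the longer Z exon (chr4:156167777-156167809) 33, and all 3 lie in coding sequence and keep the reading frame. The Nrg1 alpha exon (chr8:31838261-31838328, minus strand) has 68 bases, the beta exon (chr8:31837670-31837728) 59 and the beta1 exon (chr8:31831205-31831228) 24. The alpha and beta exons follow the same shared exon, as their common upstream flank shows.
Agrn Y exon: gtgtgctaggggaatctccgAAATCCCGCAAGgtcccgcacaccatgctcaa
Agrn Z exon, shorter: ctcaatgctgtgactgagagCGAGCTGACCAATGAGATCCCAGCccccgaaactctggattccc
Agrn Z exon, longer: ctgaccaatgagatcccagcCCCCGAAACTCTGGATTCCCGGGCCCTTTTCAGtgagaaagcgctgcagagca
Agrn without Z exons: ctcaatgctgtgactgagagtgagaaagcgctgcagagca
Nrg1 alpha exon: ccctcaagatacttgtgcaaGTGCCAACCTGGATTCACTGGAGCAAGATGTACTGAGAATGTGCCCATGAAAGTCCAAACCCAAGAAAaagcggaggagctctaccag
Nrg1 beta exon: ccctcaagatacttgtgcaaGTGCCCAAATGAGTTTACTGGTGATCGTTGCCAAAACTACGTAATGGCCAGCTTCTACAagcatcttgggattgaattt
Nrg1 beta1 exon: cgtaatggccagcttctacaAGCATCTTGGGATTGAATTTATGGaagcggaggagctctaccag

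The deposited values are read counts on parts of exons (bins), and their totals ranged from 63932395 to 107709534 in control samples and from 72315782 to 84249157 in cdKO samples. Values below are counts per 1000000 (CPM) of a gene's summed bins after TMM scaling. All 9 motor neuron markers of the list passed the filter on low counts, with a summed level of 539 to 779 CPM in control and 404 to 922 CPM in cdKO samples, although Slc5a7 was at 0.0148 CPM in the lowest control sample. Defining markers of muscle were low. The 9 skeletal muscle markers summed to 2.73 to 9.71 CPM in control and 4.81 to 7.64 CPM in cdKO samples, with Pax7 at 0 counts and Myod1 averaging 0.0265 CPM. Among the neural crest and Schwann cell precursor markers given here, which are part of their list, Foxd3 averaged 0.0885 CPM and Sox10 0.125 CPM. The other lists summed to at most 63.2 CPM in any sample (erythroid genes, from 0.872 to 18.4 in control and from 2.59 to 63.2 in cdKO samples), apart from ventral progenitor markers (154 to 300 CPM) and the posterior Hox genes, which ran from 0.873 to 50.2 CPM in control and from 13.3 to 94.2 CPM in cdKO samples. Posterior Hox RNA was lowest in control replicates 1 (0.873 CPM) and 5 (1.23 CPM), against 28.9 to 50.2 CPM in the other controls. Whether this difference bears on the members was not tested. Onecut1 measured 5.41, 2.25, 6.80, 9.94 and 4.82 CPM in control replicates 1 to 5 and 1.03, 2.02, 2.75, 3.43 and 4.29 CPM in cdKO replicates 1 to 5. Onecut2 measured 3.84, 0.988, 2.90, 6.89 and 9.40 CPM in control and 1.35, 4.85, 2.68, 6.50 and 19.2 CPM in cdKO samples, over all exons and not over a deleted part alone. Onecut3, a relative, was at 0.330 to 0.682 CPM in control and at 0 to 0.0381 CPM in cdKO samples.

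A pair of libraries stood apart and both bear on the members. In 6963 long genes, the median share of a gene's counts that fell in the last 1000 bases of its bins was 18.3% to 20.4% in 8 samples, 27.2% in control replicate 5 and 48.8% in cdKO replicate 5. Of the 4 members plotted, Agrn, Erbb2 and Lrp4 followed this in both libraries, as the plot of counts at the 3′ end shows. Nrg1 followed it only in cdKO replicate 5, at 16.4%. Its 4.38% in control replicate 5 lay within the 2.99% to 6.78% of the 8 samples. For Nrg1 this share does not cover an ending that lies within the gene, described below with its isoforms. For Agrn the share was 13.1% to 20.8% in the 8 samples, 57.1% in control replicate 5 and 83.1% in cdKO replicate 5. For Erbb2 it was 8.96% to 11.8% in the 8 samples against 25.2% and 84.2%. For results that moved with these libraries, values without 1 or both of them are given as well, and leaving out both was chosen after seeing the data.

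**Figure D1:**
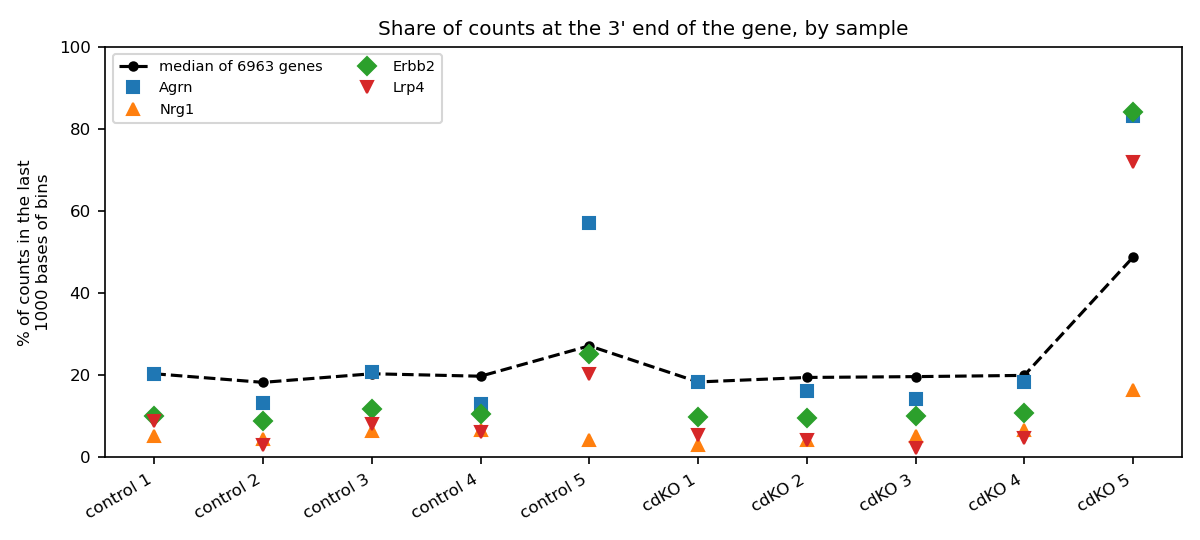
Percent of each gene's counts lying in the last 1000 bases of its exon bins (y axis) in each of the 10 samples (x axis), for Agrn, Nrg1, Erbb2 and Lrp4 (symbols) and as the median of 6963 genes (dashed line). Agrn, Erbb2 and Lrp4 reach 83.1%, 84.2% and 72.0% in cdKO replicate 5, and Nrg1 16.4%.

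In these young motor neuron lineage cells, both ligands and the receptor gene Erbb2 were well expressed, the other detected members were far lower, and Musk was not detected. Per kilobase of bins, Agrn averaged 4.27 ± 2.08 CPM (SD, n = 5) in control and 3.95 ± 1.48 CPM in cdKO samples. Erbb2 averaged 4.02 ± 1.92 and 3.73 ± 1.94 CPM per kilobase, and Nrg1 4.02 ± 1.46 and 3.52 ± 1.20. The ranges of these 3 genes overlapped in both groups, so their order was not resolved. All 10 samples had more Nrg1 than Rapsn, the next gene, which averaged 0.339 ± 0.268 CPM per kilobase in control and 0.451 ± 0.330 in cdKO samples. Below it came Lrp4 (0.198 ± 0.0744 and 0.127 ± 0.0488 CPM per kilobase), Dok7 (0.0546 ± 0.0641 and 0.0646 ± 0.0379), Erbb4 (0.0275 ± 0.0316 and 0.0391 ± 0.0229) and Erbb3 (0.0267 ± 0.0234 and 0.0295 ± 0.0245). Each of these neighbours overlapped the next in both groups, except that Rapsn lay above Lrp4 without overlap in cdKO samples. That place of Rapsn is uncertain, since 40.0% to 91.4% of its counts in cdKO samples lay on bins shared with a gene of the opposite strand, as described with its values. Musk received no count at all.

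None of the 9 members passed the test between cdKO and control. Of the 7 members with enough counts to be tested by edgeR's quasi-likelihood test, 0 had an adjusted p under 0.05 and 0 an unadjusted p under 0.05. Over all 17838 genes tested, 0 passed after Benjamini-Hochberg adjustment (0%), and 891 had an unadjusted p under 0.05 (4.99%). Even Onecut3, nearly absent from cdKO samples, did not pass (log2 fold change -5.08, unadjusted p = 1.24e-05, adjusted p = 0.111, edgeR). Nor did Onecut1 (-1.11, adjusted p = 0.939, edgeR) or Onecut2 (0.52, adjusted p = 0.997, edgeR). The CPM ranges of the groups overlapped for every detected member. Ranges that did not overlap were found for 72 of the 17838 genes (0.404%). Fewer cells of a type in a sorted sample and less RNA per cell cannot be told apart in these data, and the labels do not say whether a sample is 1 embryo or a pool, so that the spread is that between samples.

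**Figure D2:**
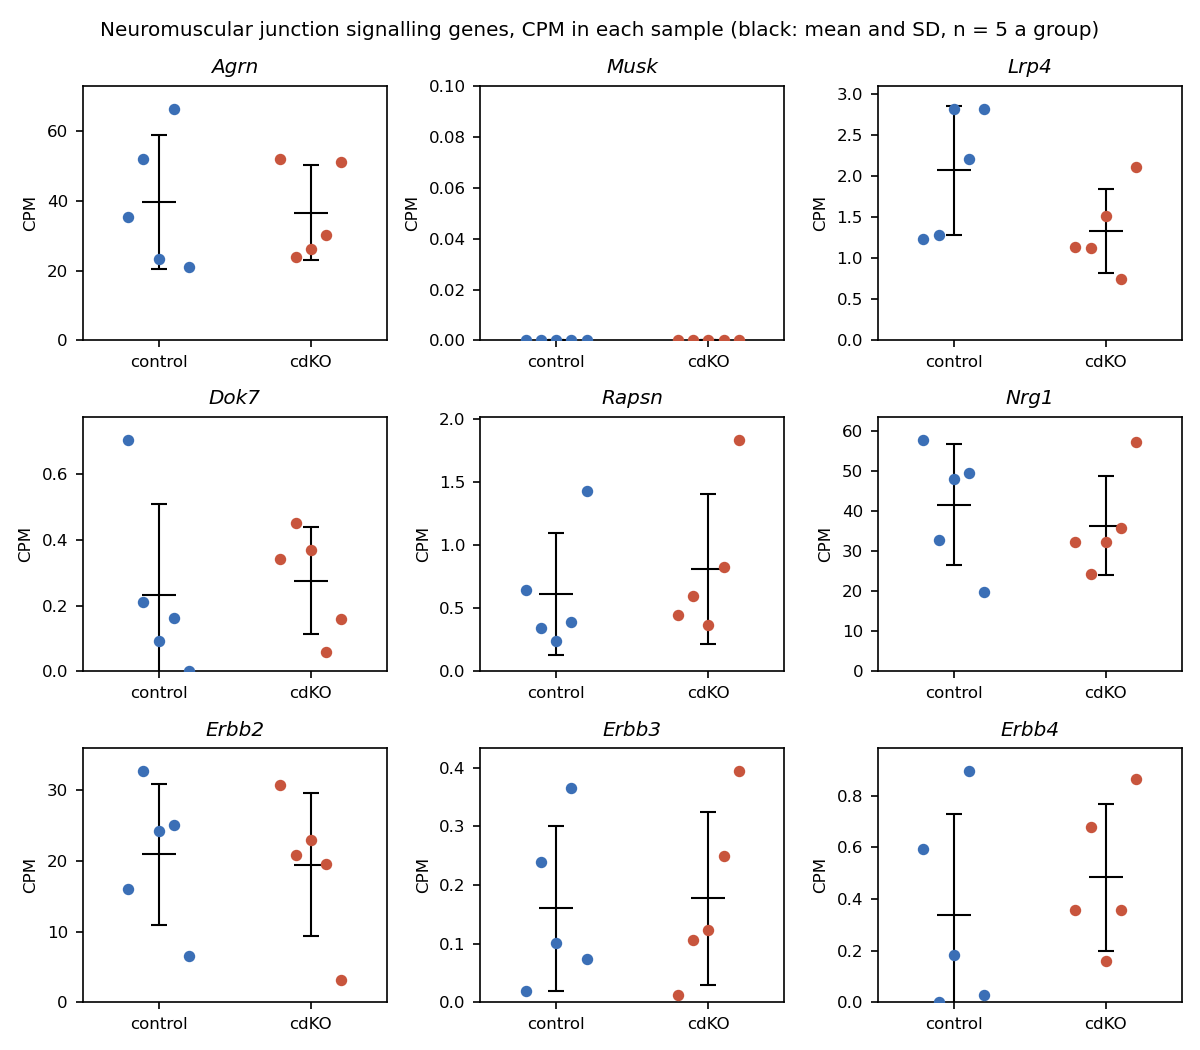
CPM (y axis, a separate linear scale from 0 for each gene) of the 9 genes in the 5 control (blue) and 5 cdKO (red) samples, in replicate order from left to right, with mean and SD in black. The groups overlap for each detected gene, Musk is at 0 in all 10 samples, and Rapsn is highest in replicate 5 of each group.

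Agrn (ENSMUSG00000041936, chr4:156165290-156197488, minus strand), the agrin ligand itself, measured 35.5, 52.1, 23.4, 66.3 and 21.1 CPM in control replicates 1 to 5 and 51.9, 24, 26.2, 30.1 and 51.1 CPM in cdKO replicates 1 to 5. Both groups reached from just over 20 CPM to above 50 CPM, and the spread within each was far wider than the distance between their means. The log2 fold change of cdKO over control was -0.11 with a standard error of 0.38 (95% interval -0.92 to 0.69, adjusted p = 0.999, edgeR; exact two-sided permutation p = 0.873). As 83.1% of the cdKO replicate 5 counts lay at the 3′ end, the fit was also made without both replicates 5, where the log2 fold change was -0.43 (unadjusted p = 0.252, edgeR). On the bin with the most counts alone it was 0.21, the opposite direction.

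Lrp4 (ENSMUSG00000027253, chr2:91457511-91513779, plus strand), the agrin receptor on muscle that motor neurons also make, measured 1.24, 1.28, 2.82, 2.21 and 2.82 CPM in control and 1.14, 1.13, 1.52, 0.751 and 2.11 CPM in cdKO samples. The 3 highest samples were controls, but the other 2 controls lay among the cdKO samples. Its log2 fold change was -0.64, standard error 0.41, and it had the smallest p of the members (95% interval -1.52 to 0.24, unadjusted p = 0.139, adjusted p = 0.966, edgeR; exact two-sided permutation p = 0.119). Its direction was the same in each of the 19 alternatives that gave a value, among which the unadjusted p fell to 0.0168 in limma-voom with sample quality weights (adjusted p = 0.521). Without cdKO replicate 5 the log2 fold change was -0.86 (unadjusted p = 0.0353, adjusted p = 1, edgeR), and without both replicates 5 it was -0.74 (unadjusted p = 0.0654, edgeR).

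Most Lrp4 counts did not cover the whole gene. The 23 bins of its 5′ part (chr2:91457511-91480871), where the annotation also places short transcripts that end within the gene, held 1018 of the counts of all samples together, against 321 on the 23 later bins (chr2:91481858-91513779), although both parts have similar length (4860 and 5644 bases). The 5′ share was 65.3%, 94.8%, 87.5%, 69.3% and 71.2% in control replicates 1 to 5, and 83.3%, 94.7%, 77.4% and 85.7% in cdKO replicates 1 to 4. In cdKO replicate 5 it was 27.1%, and 77 of the 78 later counts of that library lay on the last exon. A gene-level Lrp4 value in the other 9 samples is therefore chiefly a value of the 5′ part of the gene.

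Musk (ENSMUSG00000057280, chr4:58285960-58374303, plus strand), the receptor kinase that agrin activates through Lrp4, had 0 counts on its 23 bins in each of the 10 samples. A count of 0 allows up to 3 counts, which is 0.0279 to 0.0469 CPM of the unscaled totals. Dok7 (ENSMUSG00000044716, chr5:35056766-35087839, plus strand), its activator, received 70, 22, 8, 12 and 0 counts in control and 27, 38, 30, 5 and 8 counts in cdKO samples. It was scattered in both groups, and its log2 fold change of 0.23 had a standard error of 0.87 (95% interval -1.65 to 2.11, adjusted p = 0.999, edgeR; exact permutation p = 0.643). Without control replicate 1 it was 1.23 (unadjusted p = 0.194, edgeR), and without both replicates 5 it was 0.04.

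Rapsn (ENSMUSG00000002104, chr2:91035620-91045729, plus strand), the receptor-clustering protein, received 64, 36, 21, 29 and 97 counts in control and 35, 50, 30, 69 and 93 counts in cdKO samples. The highest library of each group was replicate 5. Its log2 fold change was 0.41 with a standard error of 0.60 (95% interval -0.89 to 1.71, adjusted p = 0.997, edgeR; exact permutation p = 0.508). The last bins of Rapsn overlap Gm13778 on the opposite strand, and since strand was not used in counting, reads of the 2 genes cannot be told apart there. These shared bins held 12.4% to 69.0% of the Rapsn counts in control and 40.0% to 91.4% in cdKO samples. On the bins of Rapsn alone the log2 fold change was -0.61 (unadjusted p = 0.424, edgeR), so that not even its direction was settled.

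Nrg1 (ENSMUSG00000062991, chr8:31814551-32884029, minus strand), the neuregulin 1 ligand, measured 57.7, 32.8, 48.1, 49.6 and 19.9 CPM in control and 32.3, 24.3, 32.4, 35.7 and 57.2 CPM in cdKO samples. Replicate 5 was the lowest control and the highest cdKO sample. The log2 fold change was -0.19 with a standard error of 0.34 (95% interval -0.92 to 0.53, adjusted p = 0.997, edgeR; exact two-sided permutation p = 0.643). Without both replicates 5, the control samples lay between 32.8 and 57.7 CPM and the cdKO samples between 24.3 and 35.7 CPM, with a log2 fold change of -0.60 (unadjusted p = 0.0238, edgeR). With all 10 samples and limma-voom with sample quality weights it was -0.59 (unadjusted p = 0.0126, adjusted p = 0.521). The direction was lower in cdKO in all 20 alternatives, and none passed the adjusted threshold.

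Erbb2 (ENSMUSG00000062312, chr11:98412470-98437716, plus strand), the coreceptor that binds no ligand of its own, measured 16, 32.7, 24.3, 25.1 and 6.50 CPM in control and 30.8, 20.8, 23.0, 19.6 and 3.11 CPM in cdKO samples. Replicate 5 was the lowest sample of both groups. The log2 fold change was -0.10 with a standard error of 0.52 (95% interval -1.22 to 1.01, adjusted p = 0.999, edgeR; exact permutation p = 0.690), and without cdKO replicate 5 alone it turned to 0.17. Erbb2 had 158 counts in cdKO replicate 5, of which 46 lay on its last bin, a few bases of which overlap the opposite-strand gene Mien1. That bin held 1.85% to 5.45% of the counts in the other 9 samples.

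The remaining receptors were barely detected. Erbb3 (ENSMUSG00000018166, chr10:128567523-128589652, minus strand), the ligand-binding partner of ErbB2 on Schwann cells, received 2, 25, 9, 27 and 5 counts in control and 1, 9, 10, 21 and 20 counts in cdKO samples. These overlapped fully and did not pass the filter for the test (exact permutation p = 0.794). Erbb4 (ENSMUSG00000062209, chr1:68032186-69108059, minus strand), a neuronal neuregulin receptor, received 59, 0, 16, 66 and 2 counts in control and 28, 57, 13, 30 and 44 counts in cdKO samples. Its log2 fold change was 0.50 with a standard error of 0.97 (95% interval -1.57 to 2.58, adjusted p = 0.997, edgeR; exact permutation p = 0.397) and turned to -0.11 without both replicates 5.

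Some other genes rose and fell across the 10 samples much as the members did. By Pearson's r of log2(CPM + 0.5), which describes 10 samples that share differences in depth and in 3′ end share, the genes most like Agrn were Afap1 (r = 0.949) and Myo18a (r = 0.926), and those most like Nrg1 were Gria1 (r = 0.931) and Bach2 (r = 0.921). Erbb2 was closest to Gm44759 (r = 0.997) and Ccar2 (r = 0.996). Lrp4 was closest to 4933439K11Rik (r = 0.900) and 1700001P01Rik (r = 0.877), which averaged 0.135 and 0.194 CPM.

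Which Agrn isoforms the cells made was read from its bins, each scaled to the gene. The secreted form begins with 2 exons that encode the N-terminal agrin domain (chr4:156195244-156197488), and the transmembrane form with another first exon (chr4:156185551-156185901). Both received counts. The secreted-form first exons received 52, 121, 13, 81 and 21 counts in control and 48, 44, 62, 37 and 90 counts in cdKO samples. The transmembrane-form first exon received 26, 84, 17, 95 and 0 counts in control and 65, 23, 44, 35 and 3 counts in cdKO samples. Both libraries with 3′-heavy counts had almost none on the transmembrane exon. The secreted exons held 100% of the first-exon counts in control replicate 5 and 96.8% in cdKO replicate 5. They held 43.3% to 66.7% in the other control samples and 42.5% to 65.7% in the other cdKO samples. The exon that follows the first exons received 0 counts in both 3′-heavy libraries, and the origin of their secreted-exon counts was not tested. As shares of all Agrn counts, the secreted exons made up 1.49% ± 0.571 (SD, n = 5) in control and 2.24% ± 0.959 in cdKO samples (exact permutation p = 0.206), and the transmembrane exon 1.01% ± 0.756 and 1.26% ± 0.723 (exact permutation p = 0.603). The secreted share was highest in cdKO replicate 5, at 3.47%, and the difference of 0.747 percentage points between the groups fell to 0.441 without that library (exact permutation p = 0.389) and to 0.435 without both replicates 5.

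The Y exon was read far more than the Z exons. It received 55, 69, 37, 67 and 9 counts in control and 67, 19, 19, 35 and 0 counts in cdKO samples. Set against the mean count of its flanking exons of 112 and 117 bases, this was 40.9% to 54.9% in the 5 control samples and 33.3% to 57.5% in the 4 cdKO samples with counts there. Cells of both genotypes thus carried Agrn RNA with the Y exon. The flanks of cdKO replicate 5 had no count, so this library says nothing about the Y exon.

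The Z exons, shown above, were covered thinly in every sample. The shorter one received 22, 13, 7, 16 and 5 counts in control and 21, 5, 6, 8 and 2 counts in cdKO samples. Against the mean of the flanking exons of 88 and 225 bases, which annotated forms with and without the Z exons share, these were 6.17% to 14.4% in control and 4.30% to 14.7% in cdKO samples. The longer one received 25, 19, 2, 22 and 1 counts in control and 33, 7, 9, 13 and 2 counts in cdKO samples, or 1.23% to 16.4% and 4.30% to 23.1% of its flanks. The Y exon value lay above both Z values in all 9 samples in which it could be formed. These percentages are not inclusion rates, because reads count once for each bin they touch and a longer exon collects more reads.

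No Agrn exon passed a test between the genotypes. The Y exon made up 1.32% ± 0.438 (SD, n = 5) of Agrn counts in control and 0.972% ± 0.627 in cdKO samples (exact two-sided permutation p = 0.349). These values include cdKO replicate 5, which had no count on the Y exon or its flanks, and without it the difference moved from -0.353 to -0.110 percentage points (exact permutation p = 0.698). The shorter Z exon made up 0.376% ± 0.145 and 0.287% ± 0.157 (exact permutation p = 0.365), and the longer 0.335% ± 0.264 and 0.434% ± 0.265 (exact permutation p = 0.540). In edgeR's test of bin use over 180711 bins, 0 passed after adjustment (0%) and 1132 had an unadjusted p under 0.05 (0.626%). Of the 44 Agrn bins tested, 0 reached either. The 3 that came closest were 2 parts of the last exon (chr4:156165294-156165777 and chr4:156165778-156166514), with log2 differences in use of 0.75 and 0.39, and the exon just before the Z exons (chr4:156168733-156168820), with -0.42. Their adjusted p was 1 in edgeR's test. The last exon held 15.9% to 24.7% of Agrn counts in the 8 other samples, but 62.8% in control replicate 5 and 87.0% in cdKO replicate 5.

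**Figure D3:**
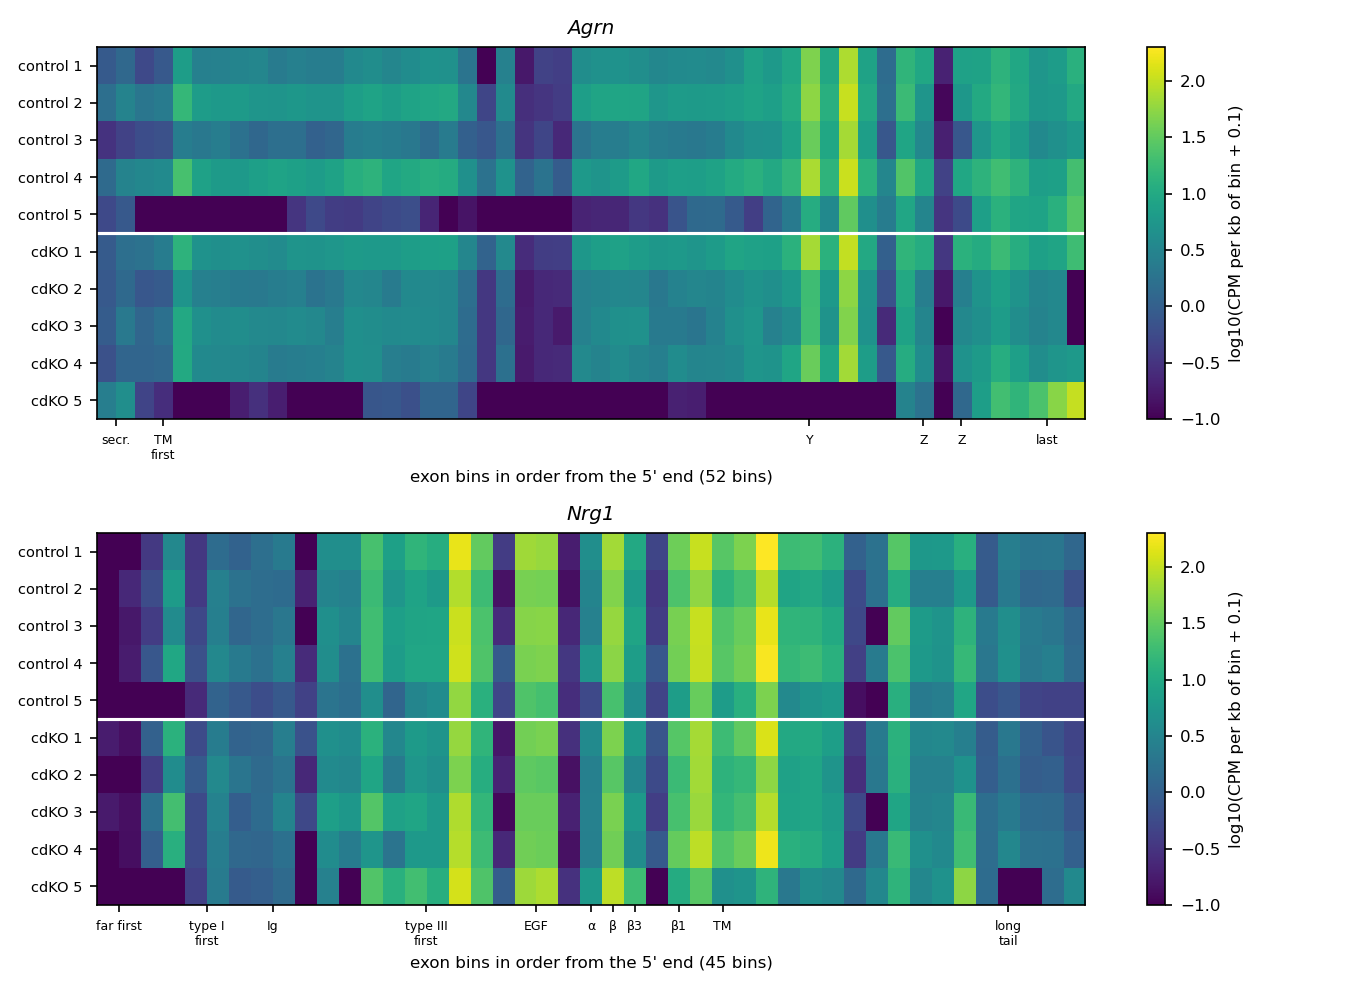
Level of each exon bin as log10(CPM per kilobase of bin + 0.1) (colour) in the 10 samples (rows; controls above the white line), with bins in order from the 5′ end (columns), for Agrn and Nrg1; tick labels name the exons described in the text. The 52 Agrn bins are nearly empty in cdKO replicate 5 between the first exons and the 3′ end. Among the 45 Nrg1 bins, the type III first exon, the shared EGF-like exon and the beta exon are bright in all samples. Bins at the transmembrane exon are lowest in cdKO replicate 5, where this exon held 1.24% of Nrg1 counts against 5.71% to 10.2% in the other samples.

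Nrg1 was read almost entirely as type III. The type III first exon (chr8:31917537-31918391), which encodes the cysteine-rich domain, received 1459, 847, 929, 821 and 342 counts in control and 495, 435, 633, 640 and 707 counts in cdKO samples. The type I first exon (chr8:32009010-32009451) received 24, 39, 32, 41 and 11 counts in control and 30, 48, 33, 33 and 14 counts in cdKO samples. Type III thus held 95.2% to 98.4% of the counts on both first exons in control and 90.1% to 98.1% in cdKO samples, and was the higher in all 10. The exons of the immunoglobulin-like domain, which type III lacks, were as low, with 371 counts over all 10 samples against 4599 on the shared exon of the EGF-like domain. A far upstream first exon (chr8:32883516-32884029) had 14 counts in all. The type I first exon also overlaps a long noncoding RNA gene on the opposite strand, Gm26578, and reads of the 2 genes cannot be told apart there. The type III first exon is the longer (855 bases in 6 bins against 442 bases in 4), so the percentages are not ratios of the forms. Per kilobase, the counts over all 10 samples were 8547 for type III and 690 for type I.

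The EGF-like domain was completed mostly by the beta exon. This exon received 404, 294, 309, 228 and 88 counts in control and 209, 139, 209, 191 and 279 counts in cdKO samples, against 28, 21, 16, 27 and 2 counts and 20, 15, 15, 15 and 20 counts on the alpha exon. Beta held 89.4% to 97.8% of their sum in control and 90.3% to 93.3% in cdKO samples. Counts continued past the end of the beta exon into a 465-base extension (chr8:31837205-31837669), which gives the beta3 ending without a transmembrane segment. The extension received 444, 311, 346, 232 and 127 counts in control and 212, 129, 219, 159 and 439 counts in cdKO samples. The beta1 exon, which leads on to the transmembrane exon, received 89, 60, 88, 69 and 11 counts in control and 51, 35, 43, 67 and 13 counts in cdKO samples. Of the counts on the extension and the beta1 exon, the extension held 92.0% in control replicate 5 and 97.1% in cdKO replicate 5, the 3′-heavy libraries. It held 77.1% to 83.8% in the other control and 70.4% to 83.6% in the other cdKO samples. Whether the 3′ end share moved this balance was not tested. The beta1 exon is much shorter than the extension, so the counts do not give the ratio of the forms. The transmembrane exon itself had 2253 counts over all samples, and both endings were in use.

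**Figure D4:**
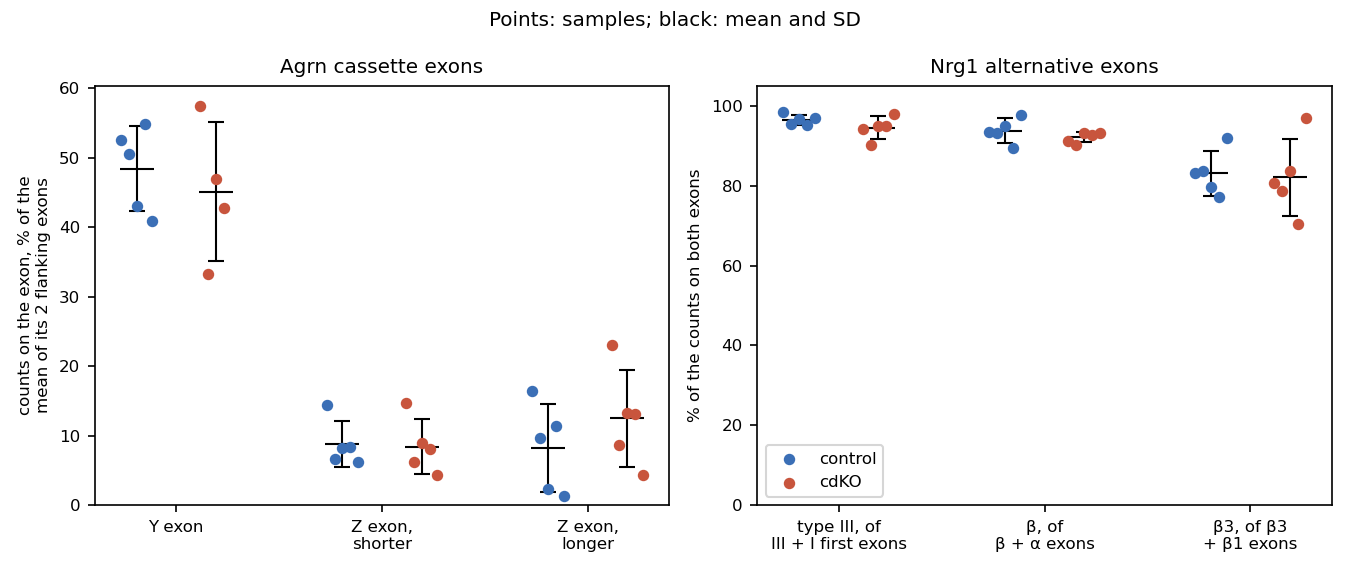
Left, counts on the Agrn Y and Z exons as percent of the mean count of their 2 flanking exons; right, the Nrg1 type III first exon as percent of type III plus type I first-exon counts, the beta exon as percent of beta plus alpha, and the beta3 extension as percent of the extension plus the beta1 exon. Points are samples (control blue, cdKO red; 1 cdKO sample has no Y value) and black marks are mean and SD; the Y values of 33.3% to 57.5% lie above all Z values, and type III stays at or above 90.1%.

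The balance of Nrg1 forms did not pass a test between the genotypes either. The type III first exon made up 24% ± 1.65 (SD, n = 5) of Nrg1 counts in control and 22.1% ± 2.05 in cdKO samples (exact two-sided permutation p = 0.143), and the type I first exon 0.850% ± 0.298 and 1.27% ± 0.676 (exact permutation p = 0.222). The beta exon made up 7.14% ± 0.917 and 7.78% ± 1.27 (exact permutation p = 0.389), the alpha exon 0.473% ± 0.226 and 0.656% ± 0.118 (exact permutation p = 0.151), the extension 8.15% ± 1.22 and 8.67% ± 3.83 (exact permutation p = 0.873) and the beta1 exon 1.62% ± 0.488 and 1.61% ± 0.691 (exact permutation p = 0.968). Of the 16 exons chosen in both genes, all were tested this way, and the smallest p that 252 arrangements allow is 0.00794. For the type I share, p fell below 0.05 when cdKO replicate 5 was left out (exact permutation p = 0.0397). For the alpha share it did so when control replicate 4 was left out (exact permutation p = 0.0476). Without cdKO replicate 5, the difference in the extension turned from 0.522 to -1.09 percentage points and that in the beta1 exon from -0.0105 to 0.279.

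At the 3′ end of Nrg1, the last exon of the long cytoplasmic tail (chr8:31814551-31818682) held 16% ± 2.09 (SD, n = 5) of the counts in control and 17.4% ± 4.01 in cdKO samples (exact permutation p = 0.508). The direction rested on cdKO replicate 5, at 23.9%, without which the difference turned from 1.48 to -0.128 percentage points. A short tail ending (chr8:31820782-31821241) held 0.437% ± 0.275 and 0.542% ± 0.276 (exact permutation p = 0.603), a difference of 0.105 that became -0.00965 without the same library, and a further tail exon (chr8:31819053-31819194) 2.31% ± 0.490 and 1.93% ± 0.545 (exact permutation p = 0.254). A juxtamembrane exon (chr8:31833153-31833230) had 27 counts in all samples together (exact permutation p = 0.492), and the far upstream first exon gave p = 0.778 in the exact permutation test. Of the 34 Nrg1 bins in edgeR's test of bin use, 0 passed the adjusted or the unadjusted threshold. The 3 that came closest were part of the type I first exon (chr8:32009154-32009448), part of the last exon (chr8:31814551-31817142) and the exon before the tail endings (chr8:31821242-31821448), with log2 differences in use of 0.56, 0.41 and -0.37 and an adjusted p of 1 in edgeR's test.

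The wider pathway showed the same lack of calls. Of 76 genes on 6 lists, 64 were tested and 0 passed the adjusted threshold, while 2 had an unadjusted p under 0.05, both lower in cdKO samples, a smaller share than the 4.99% over all genes tested. The 26 genes that act downstream of agrin and MuSK were all tested, 8 of them higher in cdKO samples, with a median log2 fold change of -0.15 beside -0.02 over all genes tested. The most abundant were Ctnnb1, which encodes beta-catenin, at 844 ± 293 CPM (SD, n = 5) in control and 740 ± 291 CPM in cdKO samples, the GTPase gene Cdc42 at 474 ± 85.2 and 618 ± 211 CPM, and Cttn, which encodes cortactin, at 294 ± 99.4 and 262 ± 121 CPM.

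Of the 5 subunit genes of the muscle acetylcholine receptor, 2 passed the filter. Chrnb1 averaged 0.255 ± 0.240 CPM in control and 0.517 ± 1.03 CPM in cdKO samples, and Chrng, the embryonic subunit, 0.107 ± 0.104 and 0.144 ± 0.169 CPM. Their log2 fold changes, 0.98 and 0.45 (median 0.71), had standard errors of 1.33 and 1.18. Chrna1, Chrnd and Chrne had 17, 25 and 41 counts over all samples.

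Of the 15 genes of the synaptic matrix and the dystroglycan complex, 12 were tested, 4 of them higher in cdKO samples, with a median log2 fold change of -0.23. The laminin chain gene Lama5 measured 2.39, 2.46, 3.48, 4.80 and 9.24 CPM in control and 1.70, 2.17, 1.23, 1.59 and 3.51 CPM in cdKO samples. The groups overlapped only through cdKO replicate 5, and the highest control was replicate 5. Its log2 fold change of -1.14 had a standard error of 0.45 (unadjusted p = 0.0256, adjusted p = 0.939, edgeR), and it was -0.69 without control replicate 5 (unadjusted p = 0.105, edgeR) and -0.98 without both replicates 5 (unadjusted p = 0.0102, edgeR). The most abundant of the list were Utrn (utrophin) at 56.5 ± 35.4 and 36.3 ± 15.3 CPM, Dag1 (dystroglycan, an agrin-binding protein) at 33.5 ± 19.1 and 25.8 ± 4.95 CPM, and Lamb2 (the synaptic laminin beta chain) at 30.1 ± 18.8 and 29.3 ± 14.7 CPM.

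Of 12 other genes of neuregulin and ErbB signalling, 9 were tested, 2 of them higher in cdKO samples, with a median log2 fold change of -0.22. The sheddase genes Adam10 (57.5 ± 31 and 45.3 ± 15.0 CPM) and Adam17 (43.3 ± 17.1 and 35.7 ± 13 CPM) and the protease gene Bace1 (25.5 ± 7.92 and 25.1 ± 6.36 CPM), whose products cut neuregulin 1, were the most abundant. Among the 11 relatives and ligands of Lrp4, 8 were tested, 3 of them higher in cdKO samples, with a median of -0.22. They were led by Aplp2 (259 ± 82.5 and 220 ± 78.7 CPM), App (136 ± 61.5 and 138 ± 33.2 CPM) and Lrp6 (19.4 ± 8.39 and 15.4 ± 6.34 CPM).

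Neural splicing regulators were all detected, the most abundant being Ptbp1 (318 ± 127 CPM in control and 285 ± 130 CPM in cdKO samples), Ptbp2 (257 ± 66.6 and 245 ± 95.9 CPM) and Rbfox2 (62.2 ± 12.6 and 59.5 ± 16.7 CPM). Nova1 averaged 9.96 ± 2.08 CPM (SD, n = 5) in control and 9.19 ± 3.81 CPM in cdKO samples, and Nova2, whose product with that of Nova1 promotes inclusion of the Agrn Z exons, 4.38 ± 0.481 and 5.94 ± 5.45 CPM. Of the 7 regulators 2 were higher in cdKO samples, with a median log2 fold change of -0.07. Rbfox1 measured 25.7, 11.8, 13.2, 17.3 and 11.2 CPM in control and 3.68, 1.04, 3.05, 3.40 and 12.1 CPM in cdKO samples. Every control was above cdKO replicates 1 to 4, and only cdKO replicate 5 reached the control range. Its log2 fold change was -1.77 with a standard error of 0.54 (unadjusted p = 0.00563, adjusted p = 0.939, edgeR), and in limma-voom with sample quality weights it was -2.62 and passed the threshold (adjusted p = 0.0116). Without both replicates 5 it was also -2.62 in edgeR but did not pass (adjusted p = 0.184).

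**Figure D5:**
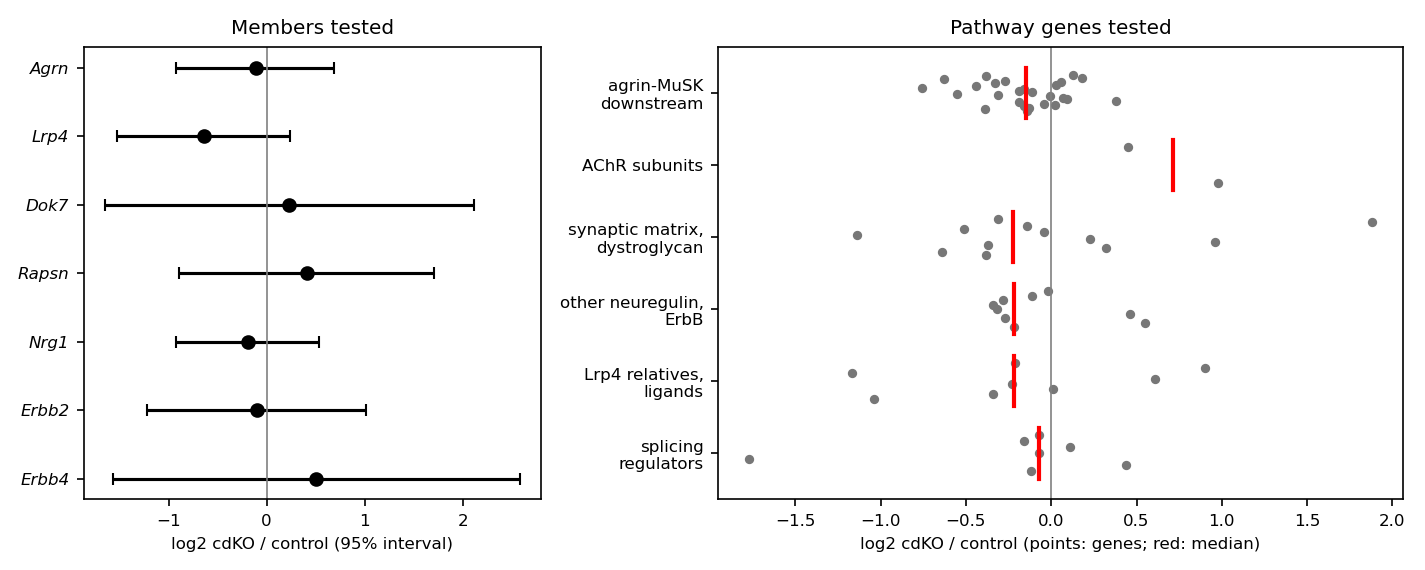
Left, log2 fold change of cdKO over control (x axis) with its 95% interval for the 7 tested members; right, log2 fold change of each of the 64 tested pathway genes (points) by list, with the list's median in red. All 7 intervals include 0, and Rbfox1 is the lowest point of the splicing regulators at -1.77.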

How the data were processed

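The authors deposited raw read counts per exon bin for each sample, not normalized; per the submitters' processing notes, reads were trimmed (Trimmomatic 0.36), aligned to GRCm38 (STAR 2.5.2b) and counted (Subread 1.5.2), and DESeq2 was used. Reads were counted on every bin overlapped and without strand: all 16 intervals that the files list on both strands held equal counts. Bins were summed per gene with GENCODE M21 (49384 of 49644 identifiers matched; 3996 bins with 1.19% of the counts that fitted no single gene were left out). Groups and replicate numbers came from the sample titles, which give e10.5; the descriptions give a different stage for each sample, and the column headers number each sample 1 higher than its title.

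Low genes were dropped by filterByExpr (minimum count 10), libraries were scaled by TMM, and groups were compared with edgeR 4.0.16 (quasi-likelihood, Benjamini-Hochberg, threshold 0.05); bins were tested with diffSpliceDGE. Exact permutation tests used all 252 arrangements of log2(CPM + 0.5) or of exon percentages. The edgeR, DESeq2 and limma fits were tested on data simulated with less spread between samples than was found here. That check does not give the power reached with these samples. No replicate pair was a duplicate (chi-square per degree of freedom 121.8 or more over 20 pairs). The members and lists were chosen with earlier results of these data known. Named were all members, list genes with an unadjusted p under 0.05 and otherwise up to the 3 most abundant, at most 6 a list, Nova1 and Nova2 for their known action on the Z exons, the selected exons, and the 3 bins with the smallest p. Intervals and floors cover counting or sample error only. Alternatives were other scalings and filters, DESeq2 1.42.0, limma 3.58.1, a replicate block, other sets of bins, and each sample left out. Some marker genes are not reported here.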

Additional observations from a re-analysis of the deposited data

Results flagged for a closer look

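Of 48 groups of 5 values examined for a single sample far from the rest (the CPM of 8 members and the shares of the selected exons, in each genotype), 1 met Dixon's criterion at the 95% level, and chance alone gives about 1 in 20. The shorter Agrn Z exon made up 0.622% of Agrn counts in control replicate 1, against 0.239% to 0.350% in the other controls, and the gap was 0.712 of the range beside a critical value of 0.71. It rests on 22 counts.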

How the results depend on the processing

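No member passed the adjusted threshold in any of the 20 alternatives, and the cause of the shifts below was not tested. Genes called numbered 0 by edgeR (891 at an unadjusted p under 0.05), 1 with library size only, 1 with no filter, 14 by the DESeq2 Wald test, 13 by limma-voom with sample quality weights, 0 to 4 with a sample left out (4 without control replicate 5) and 4 without both replicates 5, an alternative chosen after seeing the data. Scaling by library size alone moved the median over genes of the log2 fold change from -0.02 to -0.15. Pathway genes called numbered 0, but 1 (Rbfox1) by limma-voom and 0 with any sample left out. Bins called numbered 0, but 3 by limma's diffSplice, 2 with 10 counts in every sample, 1 with the replicate block, 3 without both replicates 5 and 0 to 6 with a sample left out (6 without cdKO replicate 5); genes with changed bin use were 0, then 2, 0, 1, 1 and 0 to 2. None was a bin of Agrn or Nrg1.

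The direction of a log2 fold change turned for Agrn with the highest bin (0.21), for Rapsn on its own bins (-0.61) and for Erbb4 without both replicates 5 (-0.11). With a sample left out the ranges were -0.28 to 0.12 for Agrn, -0.08 to 1.23 for Dok7, -0.10 to 0.99 for Rapsn, -0.33 to 0.17 for Erbb2, 0.17 to 1.22 for Erbb4, -0.86 to -0.51 for Lrp4 and -0.42 to -0.05 for Nrg1. Differences in exon share (cdKO minus control, percentage points) turned with neighbouring exons as the denominator for the Agrn transmembrane first exon (-8.41), the shorter Z exon (0.703) and the Nrg1 beta3 extension (-0.910), and without both replicates 5 for the extension (-0.770), the beta1 exon (0.0791), the short tail ending (-0.100) and the long tail exon (-0.279). With a sample left out they ran from -0.00352 to 0.535 for the transmembrane first exon, -0.0245 to 0.0121 for the far upstream first exon, -1.09 to 1.36 for the extension, -0.211 to 0.279 for the beta1 exon, -0.00965 to 0.187 for the short ending and -0.128 to 2.54 for the long tail exon.

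The replicate number was not shown to pair the samples: the correlations of deviations between same-numbered samples were 0.094, -0.316, 0.165, 0.428 and 0.362. With the replicate block, 0 genes and 0 members were called, as without it. Depth limits what can be said of Musk, Erbb3, Dok7 and Erbb4, and of the Z exons.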
